A study of Homo sapiens with 8 samples.

Results

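Sorafenib-resistant SK-Hep1 cells given a control siRNA were compared with sorafenib-sensitive SK-Hep1 cells given the same control siRNA, across all genes of the count table. The comparison uses 4 of the 8 poly(A) RNA-seq libraries of the series, 2 resistant and 2 sensitive, and 15684 of the 28278 named genes had enough reads to be tested. The other 4 libraries, resistant cells with COL6A3 siRNA (2 libraries) and resistant cells with COL6A3 siRNA and recombinant endotrophin (2 libraries), entered only the estimate of the spread and are shown side by side where stated. All cells were SK-Hep1 cells kept in medium with serum, and the labels place the 8 libraries in 1 batch. The labels call the 2 libraries of a group biological replicates. No label says whether they came from separate cultures, so p-values measure the spread between these libraries, which may be technical. One sensitive and one resistant population were compared, with no second line, so resistance and other differences between these populations cannot be told apart. The labels state neither the way resistance was induced nor whether cells were harvested in drug.

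Sorafenib blocks RAF kinases and several receptor tyrosine kinases and is used against advanced hepatocellular carcinoma. Cell populations that survive long exposure to such inhibitors are known to differ from their parents in surface receptors, secreted matrix and transcription factors as well as in the drug target. SK-Hep1 is an adherent line from a liver tumour that has endothelial features and lacks hepatocyte functions.

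The 4 control libraries held 30461668 and 31569154 counts (resistant) and 37096702 and 31476743 counts (sensitive). The correlation of log2 CPM (Pearson's r, over genes, which are no replicates) was 0.984 to 0.990 within the 4 groups of the series and 0.960 to 0.985 between them. Between resistant and sensitive control libraries it was 0.961 to 0.970, against 0.985 within the resistant and 0.984 within the sensitive controls. Resistant replicate 1 and sensitive replicate 2 detected the fewest genes, 15314 and 15301. Of 10 hepatocyte markers, 7 (among them ALB and APOA1) were at 0 in the 4 control libraries. Of 10 endothelial markers 4 (CDH5, KDR, EMCN and CLDN5) were at 0 in those libraries, and 1 (ROBO4) exceeded 1 FPKM in all of them. The leukocyte gene CD3E was at 0 and PTPRC was at most 0.0671 FPKM. The epithelial keratin genes KRT8 and KRT18 lay between 809 and 1113 FPKM in the control libraries, while CDH1 was at 0.

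Resistant cells differed from sensitive cells in 2480 genes (15.8% of those tested), 1022 higher (6.52%) and 1458 lower (9.3%), by the quasi-likelihood test of edgeR, with 0.05 as the limit for the p adjusted after Benjamini and Hochberg. Without resistant replicate 1 the count was 1603 (623 higher), and without resistant replicate 1 and sensitive replicate 2 together it was 1410. A gene is said here to have risen or fallen only if it was also called, in the same direction, in each of the 4 fits that leave out 1 control library. That stricter rule held for 1085 genes (6.92%), 346 that rose in resistant cells (2.21%) and 739 that fell (4.71%), and in all of them the 2 groups did not overlap. Separation of the 2 groups is nearly fixed by this rule. Here and for the genes named below it is a description and adds no support to a call. The share of separate genes among all genes tested was not counted. Changes over 2-fold numbered 125 rises and 399 falls. The median log2 fold change was 0.77 among the rises and -1.05 among the falls, against 0.01 over all genes tested. Values below are CPM, counts scaled with TMM to a common library total, given for replicate 1 and then replicate 2 of each group, and in bulk libraries fewer cells of a type and less RNA per cell cannot be told apart.

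Among genes with at least 50 CPM in the higher group, the largest rises in resistant cells were in matrix proteins, a cation channel, a secreted hormone and a T-box factor. COL6A3 (chromosome 2, 237324018 to 237414164), the collagen VI chain that carries endotrophin, had 135 and 136 CPM in the resistant libraries, against 17.8 and 19.7 CPM in the sensitive libraries, and CD44, a hyaluronan receptor, had 1425 and 1389.7 CPM in resistant and 1408 and 1382 CPM in sensitive libraries (log2 fold change 0.01, not called). TRPV2 (chromosome 17, 16415571 to 16437003), a calcium-permeable channel of the TRP family, had 59.2 and 64.4 CPM in the resistant libraries, against 16.9 and 13.8 CPM in the sensitive libraries. FN1 (chromosome 2, 215360865 to 215436068), which encodes fibronectin, had 2728 and 2916 CPM in the resistant libraries, against 691 and 745 CPM in the sensitive libraries. Both resistant libraries exceeded both sensitive ones for each of the 3 genes that rose, and in CD44 the groups overlapped. TNC (chromosome 9, 115019575 to 115118157), which encodes the matrix glycoprotein tenascin-C, had 50.8 and 67.1 CPM in the resistant libraries, against 14 and 19 CPM in the sensitive libraries. COL5A1 (chromosome 9, 134641803 to 134844843), a chain of the fibril-forming collagen V, had 136 and 154 CPM in the resistant libraries, against 37.6 and 46.7 CPM in the sensitive libraries. TBX3 (chromosome 12, 114670255 to 114684175), a T-box transcription factor of limb, breast and liver development, averaged 240.1 ± 7.26 CPM in the resistant libraries and 72.9 ± 3.69 CPM in the sensitive libraries (SD, n = 2 each). Here too the groups stood apart, with a smaller spread relative to the mean for TBX3 than for TNC. STC1 (chromosome 8, 23841929 to 23854806), a secreted glycoprotein hormone, had 279 and 270.3 CPM in the resistant libraries, against 90.4 and 81.9 CPM in the sensitive libraries. CDK15 (chromosome 2, 201806429 to 201895550), a kinase of the cyclin-dependent family, had 56.9 and 57.1 CPM in the resistant libraries, against 24.1 and 18.3 CPM in the sensitive libraries. PTP4A1 (chromosome 6, 63516440 to 63583588), a prenylated phosphatase linked to cell migration, had 638 and 631 CPM in the resistant libraries, against 224 and 224 CPM in the sensitive libraries, and its neighbour PHF3 (chromosome 6, 63635802 to 63726011), which binds the tail of RNA polymerase II, had 495 and 462 CPM in the resistant libraries, against 165 and 154 CPM in the sensitive libraries. The lowest resistant library lay above the highest sensitive library in each of these 4 genes.

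In log2 fold change the 10 rises ran from 1.43 (SE 0.14) for CDK15 to 2.86 (SE 0.12) for COL6A3, with FN1 at 1.98 (SE 0.055) and TBX3 at 1.72 (SE 0.087). By edgeR's quasi-likelihood test with Benjamini-Hochberg adjustment, the adjusted p was 1.69e-16 for FN1, 1.21e-13 for PTP4A1 and at most 2.04e-07 in the 10 genes. The fits that leave out 1 library gave 2.78 to 2.93 for COL6A3, 1.92 to 2.03 for FN1 and 1.62 to 2.07 for TNC.

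The falls at this level of expression were steeper than the rises and took several genes close to the detection limit. KRT19 (chromosome 17, 41523617 to 41528308), a simple-epithelial keratin, had 2.01 and 1.07 CPM in the resistant libraries, against 214 and 201 CPM in the sensitive libraries. DCDC2 (chromosome 6, 24171755 to 24383292), a doublecortin-domain protein of microtubules and cilia, had 4.34 and 1.01 CPM in the resistant libraries, against 150.1 and 142 CPM in the sensitive libraries. TIMP3 (chromosome 22, 32801705 to 32863041), a matrix-bound inhibitor of metalloproteases, had 3.56 and 5.21 CPM in the resistant libraries, against 213 and 216 CPM in the sensitive libraries. All 3 were high in both sensitive libraries and nearly absent from both resistant ones. HKDC1 (chromosome 10, 69220332 to 69267552), a hexokinase-like enzyme, had 4.47 and 5.81 CPM in the resistant libraries, against 99.7 and 97.3 CPM in the sensitive libraries. CTSZ (chromosome 20, 58995185 to 59007254), a lysosomal cysteine protease, had 4.21 and 4.08 CPM in the resistant libraries, against 76.6 and 76 CPM in the sensitive libraries. ARHGAP4 (chromosome X, 153907378 to 153926264), a GTPase-activating protein, had 8.1 and 5.53 CPM in the resistant libraries, against 94.2 and 105 CPM in the sensitive libraries. PNMA2 (chromosome 8, 26504701 to 26513872), a paraneoplastic antigen derived from a retroelement, had 7.09 and 5.31 CPM in resistant and 74.4 and 61.4 CPM in sensitive libraries. The remaining 3 were interferon-inducible. OAS1 (chromosome 12, 112906962 to 112933219) and OAS2 (chromosome 12, 112978519 to 113011723), which make the messenger of the RNase L pathway when they meet double-stranded RNA, had 1.72 and 3.66 CPM and 2.85 and 3.79 CPM in resistant libraries, against 56.4 and 84.1 CPM and 70.1 and 93.2 CPM in sensitive ones. IFIT1 (chromosome 10, 89392623 to 89406487), which binds RNA lacking a host cap, had 13.7 and 11.7 CPM in the resistant libraries, against 139.7 and 163 CPM in the sensitive libraries. No resistant library reached the lowest sensitive one in any of these 10 genes.

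KRT19 had a log2 fold change of -7.07 (SE 0.22), DCDC2 of -5.77 (SE 0.33), TIMP3 of -5.61 (SE 0.17), and the smallest of the 10, PNMA2, of -3.45 (SE 0.21). In edgeR's quasi-likelihood test the Benjamini-Hochberg adjusted p was 7.91e-16 for KRT19, 3.03e-16 for TIMP3 and at most 6.92e-10 (OAS1). Keratins share sequence with pseudogenes, so the share of reads assigned to KRT19 is uncertain. The resistant libraries with COL6A3 siRNA, without and with endotrophin, had 2.33 and 2.15 CPM and 1.74 and 2.82 CPM of KRT19, and 16.8 and 14.4 CPM and 18.8 and 20.1 CPM of TIMP3. FN1 stood at 5533 and 6073 CPM and 7198 and 6604 CPM in those libraries, above the resistant controls. TRPV2, at 21.4 and 23.3 CPM and 24.3 and 27 CPM, lay between the 2 control groups, and PTP4A1, at 983 and 966 CPM and 934 and 935 CPM, lay above both.

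**Figure D1:**
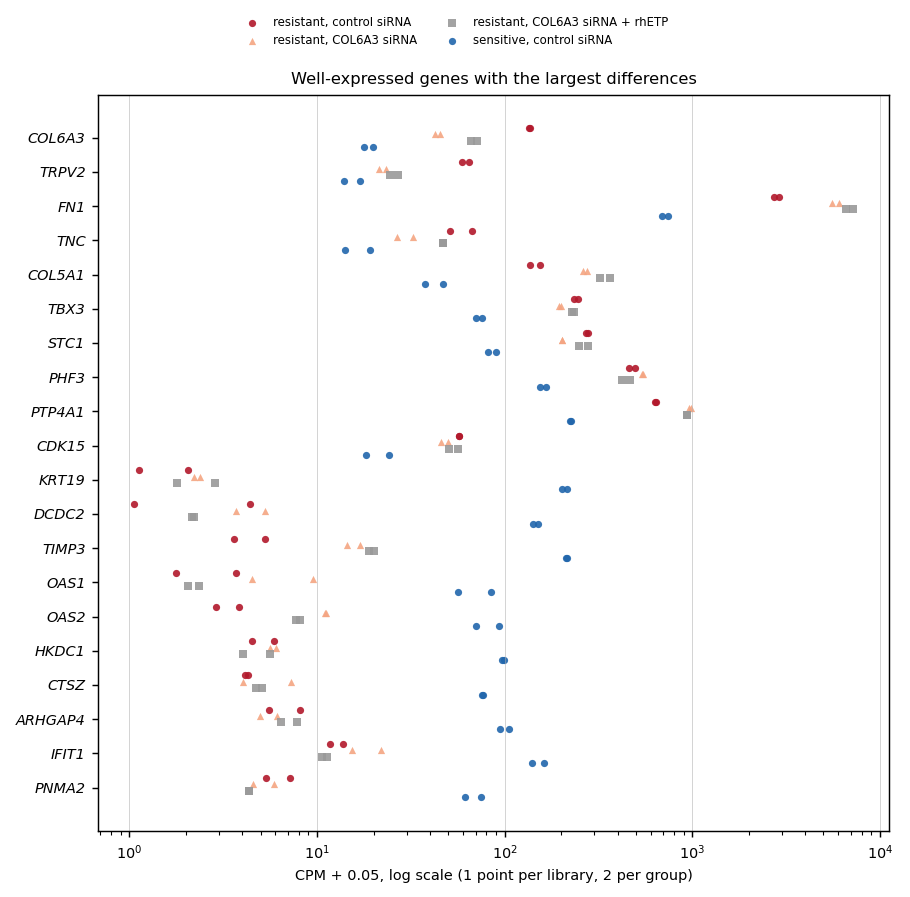
CPM on a log axis (0.05 added) of the 10 rises and 10 falls with the largest log2 fold change among genes with at least 50 CPM in the higher control group, 1 point per library and 2 libraries per group. In every gene the resistant control points (red) and the sensitive control points (blue) are separate, and KRT19, DCDC2 and TIMP3 are the furthest apart.

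On the scale of FPKM, which divides by gene length and so compares levels between genes, the largest falls in resistant cells were in calcium-binding, actin and galectin genes, and the largest rises included a peptidase, fibronectin and a laminin receptor. S100A6, a small calcium-binding protein, had 629 and 703 FPKM in resistant libraries, against 1529 and 1482 FPKM in sensitive ones. ANXA2, a membrane-binding annexin that docks plasminogen at the cell surface, had 980.1 and 988 FPKM in resistant and 1769 and 1722 FPKM in sensitive libraries. TMSB4X, which encodes the actin-sequestering thymosin beta-4, had 813 and 756 FPKM in resistant and 1161 and 1215 FPKM in sensitive libraries. The groups were separate for all 3. LGALS1, which encodes galectin-1, had 1044 and 1110.1 FPKM in resistant and 1471 and 1447 FPKM in sensitive libraries. The cytoplasmic actins ACTG1 and ACTB had 1363 and 1422 FPKM and 1399 and 1508 FPKM in resistant libraries, against 1793 and 1754 FPKM and 1806 and 1837 FPKM in sensitive ones. The actin calls were lost when limma was run on log2(FPKM + 0.1) or log2(FPKM + 1). Actin, thymosin and ribosomal protein genes have many near-identical copies in the genome, which makes their read shares uncertain.

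On the same FPKM scale, ANPEP, the membrane aminopeptidase CD13, had 493 and 536 FPKM in resistant and 273 and 270.2 FPKM in sensitive libraries. ITGA6, the alpha-6 subunit of laminin-binding integrins, had 355 and 341 FPKM in resistant and 176 and 177 FPKM in sensitive libraries. G0S2, an inhibitor of adipose triglyceride lipase, had 427 and 466 FPKM in resistant and 260.0 and 276 FPKM in sensitive libraries. These 3 genes, with FN1 at 307 and 325 FPKM in resistant and 75.6 and 81.2 FPKM in sensitive libraries, showed no overlap between groups. SMS, the spermine synthase of polyamine metabolism, had 633 and 581 FPKM in resistant and 419.9 and 445 FPKM in sensitive libraries, and the ribosomal protein gene RPL27 had 1659 and 1684 FPKM in resistant and 1312 and 1294 FPKM in sensitive libraries. As log2 fold changes of the counts, ITGA6 was at 0.94 (SE 0.054), ANPEP at 0.88 (SE 0.067), S100A6 at -1.21 (SE 0.083) and ANXA2 at -0.86 (SE 0.047), with edgeR quasi-likelihood Benjamini-Hochberg adjusted p of 1.57e-11, 1.85e-09, 3.74e-10 and 5.68e-12. RPL27 was at 0.32 (SE 0.056), a change that did not pass the test against a 1.5-fold change, as was so for G0S2, SMS, TMSB4X, LGALS1, ACTG1 and ACTB.

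**Figure D2:**
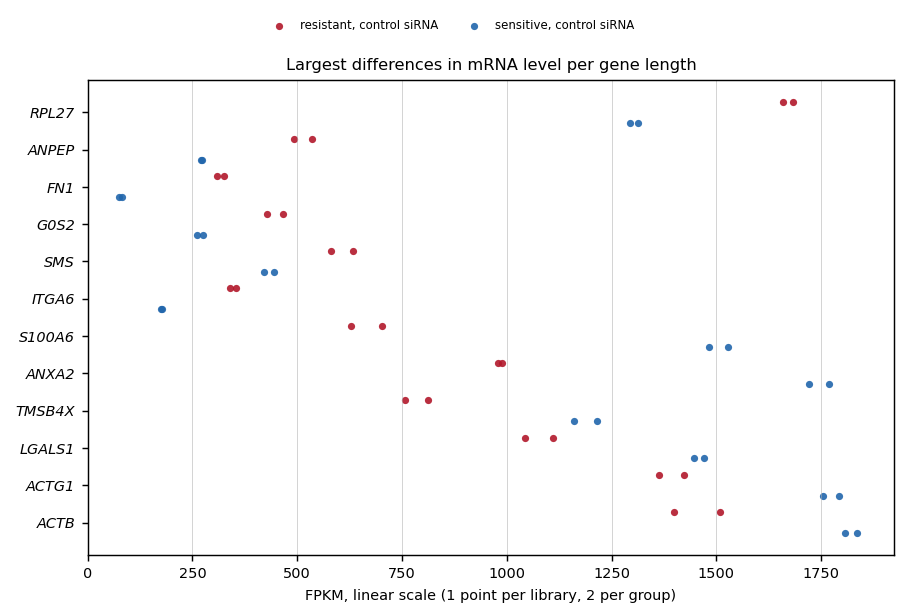
FPKM on a linear axis of the 6 genes with the largest rise and the 6 with the largest fall in mean FPKM among genes that rose or fell, 1 point per library. The 2 resistant points (red) and 2 sensitive points (blue) do not overlap in any gene, and ANXA2 and S100A6 have the widest gaps.

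Families of secreted, surface, transcription-factor and intracellular proteins were defined by gene symbol, 48 in all, and each is described by the number of tested members that rose or fell and by its median log2 fold change. The shares to read them against are 2.21% rises and 4.71% falls over all genes tested, and a median of 0.01. These shares depend on expression. Of the 4965 genes with at least 50 CPM in the higher control group, 197 rose and 416 fell, both larger shares than over all genes. A family of abundant genes can therefore exceed the shares over all genes by its expression level alone. Secreted families held 295 tested genes, of which 14 rose (4.75%) and 47 fell (15.9%). These families also hold receptors, such as IL7R and LRP4, and mainly intracellular proteins, such as SERPINB9. The shares are therefore not those of secreted proteins alone. Surface families held 862, of which 29 rose (3.36%) and 67 fell (7.77%). Transcription-factor families held 921, of which 24 rose (2.61%) and 28 fell (3.04%), and intracellular families held 931, of which 29 rose (3.11%) and 85 fell (9.13%). No set test was run, so these shares are descriptions.

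S100 proteins and annexins, which bind calcium at membranes and are partly exported, had 0 rises and 7 falls among 21 tested (33.3%), with a median of -0.13. ANXA3 was at 0 CPM in both resistant libraries, against 5.37 and 5.02 CPM in sensitive ones, at least 54.1-fold lower in resistant cells with a floor of 3 counts per library, though DESeq2 did not call it. S100A11, by FPKM among the 3 most abundant genes of the secreted families with ANXA2 and S100A6, had 261 and 276 CPM in the resistant libraries, against 370.0 and 399.8 CPM in the sensitive libraries. The groups were separate in each of these genes. Thrombospondins, olfactomedins and other modular secreted proteins had 1 rise (TNC) and 8 falls of 41 tested (19.5% falls), with a median of -0.53. OLFM1, an olfactomedin-domain glycoprotein, was at 0 CPM in both resistant libraries, against 11.7 and 7.16 CPM in sensitive ones, at least 98.4-fold lower in resistant cells. SPOCK1, a testican proteoglycan, had 4.21 and 3.47 CPM in the resistant libraries, against 21.7 and 16.7 CPM in the sensitive libraries. In both genes the 2 resistant libraries lay below both sensitive ones.

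Serpins, cystatins and other protease inhibitors had 1 rise and 6 falls of 29, with a median of -0.12. SERPINE2, which encodes the thrombin and plasmin inhibitor protease nexin-1, had 36.3 and 35.8 CPM in the resistant libraries, against 256 and 238 CPM in the sensitive libraries (log2 fold change -2.78, SE 0.10, edgeR adjusted p = 1.5e-14). SERPINB9, which inhibits granzyme B, had 2.98 and 2.5 CPM in the resistant libraries, against 8.57 and 8.48 CPM in the sensitive libraries. SERPINB7 went the other way, with 162 and 149.9 CPM in the resistant libraries, against 70.5 and 68.4 CPM in the sensitive libraries. Resistant and sensitive libraries did not overlap for any of the 3 serpins. In the complement and coagulation list 0 of 28 rose and 4 fell (median -0.46). TFPI, the inhibitor of the tissue-factor pathway, had 65.6 and 70.9 CPM in the resistant libraries, against 173 and 177 CPM in the sensitive libraries, and PROCR, the endothelial receptor of protein C, had 54.8 and 65.4 CPM in the resistant libraries, against 128 and 114 CPM in the sensitive libraries. Both resistant libraries lay below both sensitive ones for the pair.

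Signalling ligands moved in both directions. Wnt ligands and secreted Wnt inhibitors had 1 rise and 4 falls of 14 tested (median -0.47). WNT5A, a ligand of the non-canonical Wnt branch, had 20.7 and 15.6 CPM in the resistant libraries, against 7.21 and 3.72 CPM in the sensitive libraries. WNT7B had 0 and 1.33 CPM in the resistant libraries, against 10.4 and 14 CPM in the sensitive libraries, and the secreted antagonist SFRP1 had 349 and 362 CPM in the resistant libraries, against 784 and 820.2 CPM in the sensitive libraries. The groups were separate in all 3, though 1 resistant library lacked WNT7B reads and DESeq2 did not call that gene. The TGF-beta family and its antagonists had 3 rises and 4 falls of 30 (median 0.05). INHBA, the activin A subunit, had 85.7 and 81.4 CPM in the resistant libraries, against 31.2 and 43.7 CPM in the sensitive libraries, and the BMP antagonist CHRDL1 had 263 and 257 CPM in the resistant libraries, against 189 and 202 CPM in the sensitive libraries. BMP4 had 0.389 and 0.853 CPM in the resistant libraries, against 6.9 and 7.12 CPM in the sensitive libraries, and GREM1, which encodes the BMP antagonist gremlin-1, had 3.95 and 5.62 CPM in the resistant libraries, against 34.3 and 42.9 CPM in the sensitive libraries. INHBA and CHRDL1 rose while BMP4 and GREM1 fell, and the groups overlapped in none of the 4. The resistant cells' BMP4 and GREM1 had log2 fold changes of -3.49 (SE 0.56) and -3.01 (SE 0.27).

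Growth factors of the FGF, PDGF and VEGF families and their relatives had 2 rises and 2 falls of 34 (median -0.16). PTN, which encodes pleiotrophin, had 3.98 and 6.44 CPM in the resistant libraries, against 2.16 and 1.1 CPM in the sensitive libraries, whereas its paralog MDK, which encodes midkine, had 0.583 and 1.96 CPM in the resistant libraries, against 12.2 and 13.4 CPM in the sensitive libraries. HDGF had 587 and 589.7 CPM in the resistant libraries, against 492 and 478 CPM in the sensitive libraries and FGF5 had 74.1 and 72.7 CPM in the resistant libraries, against 111 and 117 CPM in the sensitive libraries. The related factors PTN and MDK thus differed in opposite directions, at 1.66 (SE 0.34) and -3.33 (SE 0.47) in log2 fold change. Interleukins, colony-stimulating factors and their receptors had 0 rises and 7 falls of 49 (median -0.04). CSF1, the macrophage growth factor, had 2.4 and 3.41 CPM in the resistant libraries, against 9.15 and 13.1 CPM in the sensitive libraries, and IL7R, the interleukin-7 receptor, had 13.9 and 9.6 CPM in the resistant libraries, against 33.1 and 31.1 CPM in the sensitive libraries. Peptide hormones had 2 rises, STC1 among them, and 1 fall of 16 (median -0.07), the fall being EDN1, which encodes the vasoconstrictor endothelin-1, with 25.8 and 30 CPM in the resistant libraries, against 80.3 and 77.4 CPM in the sensitive libraries. No resistant library overlapped the sensitive ones in these genes.

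Apolipoproteins and lipid carriers had 4 rises and 5 falls of 34 (median -0.13). LRP4, a receptor of the low-density lipoprotein family, had 26 and 31.1 CPM in the resistant libraries, against 12.9 and 12.1 CPM in the sensitive libraries, and ANGPTL4, an inhibitor of lipoprotein lipase, had 49.8 and 58.7 CPM in the resistant libraries, against 20.3 and 29.6 CPM in the sensitive libraries. APOL1, an intracellular and secreted apolipoprotein induced by interferon, had 0.648 and 0.632 CPM in the resistant libraries, against 8.33 and 7.74 CPM in the sensitive libraries, and the retinol-binding RBP7 had 5.21 and 5.15 CPM in the resistant libraries, against 26 and 29.7 CPM in the sensitive libraries. The separation was complete in all of them. ANGPTL4 had 12 and 15.8 CPM with COL6A3 siRNA and 61.3 and 74.3 CPM with siRNA and endotrophin, which put it below both sensitive libraries in the first case and above both resistant controls in the second.

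Tetraspanins and TM4SF proteins, which organise receptors and integrins in the membrane, had 0 rises and 6 falls among 26 tested (23.1%), with a median of -0.25. TM4SF4 was at 0 CPM in both resistant libraries, against 9.59 and 11.1 CPM in sensitive ones, at least 108-fold lower in resistant cells. Its neighbour TM4SF18 had 6.87 and 7.2 CPM in the resistant libraries, against 27.5 and 25.9 CPM in the sensitive libraries, and CD63, an exosome tetraspanin and one of the 3 most abundant surface mRNAs by FPKM, had 504 and 509.7 CPM in the resistant libraries, against 652 and 644 CPM in the sensitive libraries. The falls thus spanned a gene without reads in resistant cells and, in CD63, a log2 fold change of -0.35. Claudins and tight-junction proteins had 0 rises and 4 falls of 24 (16.7%, median -0.34). CLDN1, a sealing claudin, had 0.907 and 1.71 CPM in the resistant libraries, against 20.1 and 24.3 CPM in the sensitive libraries, and CLDN7, another epithelial claudin, had 4.76 and 6.89 CPM in the resistant libraries, against 45.3 and 50.7 CPM in the sensitive libraries. Neither gene overlapped between groups.

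Adhesion molecules of the immunoglobulin family had 4 rises and 10 falls of 49 (8.16% and 20.4%, median -0.24). CNTN1, a GPI-anchored contactin of axons, had 14.3 and 13.3 CPM in the resistant libraries, against 1.12 and 1.23 CPM in the sensitive libraries (log2 fold change 3.55, SE 0.25, edgeR adjusted p = 5.04e-10). ROBO4, an endothelial guidance receptor, had 55.4 and 67.2 CPM in the resistant libraries, against 26.4 and 22.6 CPM in the sensitive libraries. SIRPA, the receptor for the CD47 signal, had 1.3 and 1.11 CPM in the resistant libraries, against 49 and 44.9 CPM in the sensitive libraries, and the nectin-like CADM4 had 1.81 and 1.42 CPM in the resistant libraries, against 13.4 and 11.2 CPM in the sensitive libraries. SIRPA showed the widest gap of the 4, at -5.28 (SE 0.28) in log2 fold change. ROBO4 made up most of the endothelial marker sum, which was 14.9 and 18.1 FPKM in resistant and 6.61 and 5.63 FPKM in sensitive libraries. Of the 10 markers 8 were below 1 FPKM in all 4 control libraries, so the sum is nearly that of ROBO4 and TIE1. VWF, with at most 0.101 FPKM in those libraries, was not called. The part of other cell states in the sum was not tested. Cadherins and protocadherins had 2 rises and 6 falls of 69 (median -0.12). CLSTN2 and PCDH9, cell-adhesion proteins of synapses, had 8.97 and 10.3 CPM and 16.4 and 17.1 CPM in resistant libraries, against 4.27 and 2.91 CPM and 9.01 and 7.93 CPM in sensitive ones, and both calls were lost in limma on FPKM. DCHS1, a giant planar-polarity cadherin, had 10.2 and 8.28 CPM in the resistant libraries, against 49.2 and 48.3 CPM in the sensitive libraries, and CDH4, which encodes R-cadherin, had 3.98 and 6.07 CPM in the resistant libraries, against 18 and 25.7 CPM in the sensitive libraries. None of the 4 overlapped between groups.

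Among 37 receptor tyrosine kinases 3 rose and 4 fell (median -0.22). TIE1, an endothelial receptor that modulates angiopoietin signals, had 6.83 and 9.57 CPM in the resistant libraries, against 1.92 and 1.17 CPM in the sensitive libraries. NTRK3, the neurotrophin-3 receptor, had 16.6 and 11.2 CPM in the resistant libraries, against 5.26 and 2.56 CPM in the sensitive libraries. ROR1, a receptor for WNT5A that also counts among the 28 Notch and Wnt receptors, where it was the 1 change, had 0.842 and 1.23 CPM in the resistant libraries, against 14.1 and 17.2 CPM in the sensitive libraries. PDGFRL, a receptor-like secreted protein, had 7.81 and 9.54 CPM in the resistant libraries, against 21.5 and 16.2 CPM in the sensitive libraries. WNT5A thus rose and ROR1 fell, at -3.91 (SE 0.40) in log2 fold change, with no overlap. Eph receptors and ephrins had 2 rises and 3 falls of 16 (median -0.39). EPHB2 and EPHB1 had 29.9 and 42.6 CPM and 25.2 and 20.7 CPM in resistant libraries, against 15.8 and 15 CPM and 10.7 and 10 CPM in sensitive ones. EPHA4 had 7.77 and 7.27 CPM in the resistant libraries, against 24.4 and 30.5 CPM in the sensitive libraries, and the ligand EFNB2 had 23.7 and 22.7 CPM in the resistant libraries, against 44.7 and 51.6 CPM in the sensitive libraries. EPHB2 and EPHB1 rose while EPHA4, EFNB2 and the further B-type receptor EPHB4, at -0.84 (SE 0.15) in log2 fold change, fell, and the groups did not overlap in any of the 5.

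The TNF ligands and receptors had 0 rises and 4 falls of 27 (14.8%, median -0.24). TNFRSF10A, a death receptor for TRAIL, had 8.23 and 7.74 CPM in the resistant libraries, against 22.1 and 24 CPM in the sensitive libraries, and TNFRSF14, the entry mediator HVEM, had 2.27 and 1.67 CPM in the resistant libraries, against 5.53 and 6.96 CPM in the sensitive libraries. Proteoglycans and GPI-anchored proteins had 1 rise and 6 falls of 47 (median -0.16). VCAN, which encodes versican, had 14.4 and 17.2 CPM in the resistant libraries, against 3.92 and 3.92 CPM in the sensitive libraries. BST2, the interferon-induced protein tetherin that holds virions at the membrane, had 0 and 0.221 CPM in the resistant libraries, against 43.9 and 44.5 CPM in the sensitive libraries, and GFRA1, a co-receptor for the neurotrophic factor GDNF, had 1.81 and 1.99 CPM in the resistant libraries, against 33.4 and 34.2 CPM in the sensitive libraries. VCAN was the 1 rise, and each gene stood apart between groups. BST2 had 0 reads in 1 resistant library.

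Larger surface families lay near the background. Of 136 G-protein-coupled receptors 3 rose and 9 fell (2.21% and 6.62%, median 0.16). F2RL2, a thrombin-activated receptor, had 9.59 and 11.9 CPM in the resistant libraries, against 2.33 and 1.3 CPM in the sensitive libraries, and the chemokine receptor CCR1 had 7.48 and 12.9 CPM in the resistant libraries, against 3.92 and 4.02 CPM in the sensitive libraries. GPRC5B had 0.453 and 3.29 CPM in the resistant libraries, against 22.8 and 22.9 CPM in the sensitive libraries, with log2 fold changes of -5.65 to -2.80 as single libraries were left out, and CELSR1, an adhesion receptor of planar polarity, had 8.78 and 10.9 CPM in the resistant libraries, against 34.5 and 39.4 CPM in the sensitive libraries. Of 154 ion channels 6 rose and 6 fell (3.90% each, median near 0). TRPV2 and KCNMB4, a subunit of the large-conductance potassium channel with 7.42 and 4.99 CPM in the resistant libraries, against 0.877 and 1.59 CPM in the sensitive libraries, led the rises among channels with at least 5 CPM. KCNAB2, a potassium-channel beta subunit, had 5.15 and 4.64 CPM in the resistant libraries, against 34.9 and 27.9 CPM in the sensitive libraries, and the silent subunit KCNS1 had 5.67 and 5.4 CPM in the resistant libraries, against 13.8 and 14.9 CPM in the sensitive libraries. The channels' groups did not overlap in these 4 genes. Of 269 solute carriers 8 rose and 10 fell (2.97% and 3.72%, median -0.02). SLC7A2, a cationic amino acid transporter, had 46.6 and 48.4 CPM in the resistant libraries, against 21.5 and 16.1 CPM in the sensitive libraries, and the mitochondrial carrier SLC25A27 had 6.09 and 6.73 CPM in the resistant libraries, against 0.685 and 0.389 CPM in the sensitive libraries. SLC27A2, a fatty acid transporter, had 2.07 and 2.37 CPM in the resistant libraries, against 10.5 and 8.29 CPM in the sensitive libraries, and SLC17A9, the vesicular nucleotide transporter, had 8.13 and 10.9 CPM in the resistant libraries, against 22.3 and 29.2 CPM in the sensitive libraries. The most abundant carriers by FPKM were SLC20A1, a phosphate transporter with 1167 and 1138 CPM in the resistant libraries, against 891 and 831 CPM in the sensitive libraries, and the adenine nucleotide carrier SLC25A5, which was not called (log2 fold change -0.05). SLC20A1 was separate between groups and SLC25A5 overlapped.

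As a class the transcription-factor families had shares of rises and falls (2.61% and 3.04%) of a size like those over all genes, while single families were above or below them. Homeobox factors outside the HOX clusters had 2 rises and 1 fall of 86 (median 0.00), and the 27 HOX genes had 0 and 0 (median -0.13). The HOX genes had 1 call higher and 6 lower in the fit on all libraries, none of which was kept in every leave-one-out fit. SATB1, a chromatin organiser, had 26 and 18.9 CPM in the resistant libraries, against 4.68 and 3.76 CPM in the sensitive libraries, and SIX4 had 21 and 16.6 CPM in the resistant libraries, against 9.07 and 9.52 CPM in the sensitive libraries. Both SATB1 and SIX4 were higher in the 2 resistant libraries than in either sensitive one.

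Forkhead factors had 3 rises and 0 falls of 33 (9.09%, median 0.24). FOXP1 had 53.9 and 46.1 CPM in the resistant libraries, against 18.2 and 16.4 CPM in the sensitive libraries, and FOXD1, a factor of kidney stroma and retina, had 292 and 316 CPM in the resistant libraries, against 156 and 188 CPM in the sensitive libraries. SOX4, the 1 rise among 9 SOX factors (median 0.17), had 30.7 and 31.6 CPM in the resistant libraries, against 12.4 and 11 CPM in the sensitive libraries. Both libraries of each group kept apart in the 3 genes. SOX4 was higher still in the COL6A3 siRNA libraries, at 80.4 and 81.9 CPM, and with endotrophin, at 66.9 and 52.7 CPM. TBX3 was the 1 rise among 11 GATA and T-box factors (median -0.46), and KLF5, with 12.1 and 14.3 CPM in the resistant libraries, against 25.2 and 22.3 CPM in the sensitive libraries, was the 1 fall among 22 KLF and SP factors (median 0.12).

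The IRF, STAT and NF-kB list had 0 rises and 5 falls of 24 (20.8%, median -0.30). IRF9, the DNA-binding part of an interferon-activated complex, had 9.17 and 7.55 CPM in the resistant libraries, against 44.5 and 57.9 CPM in the sensitive libraries, and IRF7, the amplifier of type I interferon production, had 4.73 and 4.64 CPM in the resistant libraries, against 23.1 and 22.5 CPM in the sensitive libraries. Basic helix-loop-helix factors had 0 rises and 5 falls of 58 (median -0.04). EPAS1, which encodes the hypoxia-inducible factor HIF-2 alpha, had 2.01 and 1.83 CPM in the resistant libraries, against 11.9 and 10.8 CPM in the sensitive libraries, and ID2, an inhibitor of such factors, had 2.98 and 1.52 CPM in the resistant libraries, against 8 and 10.3 CPM in the sensitive libraries. In these 4 genes no resistant library reached a sensitive one. Among nuclear receptors (1 rise and 2 falls of 36, median -0.12) NR2F2, an orphan receptor of venous and mesenchymal cells, had 526 and 571 CPM in the resistant libraries, against 388 and 424 CPM in the sensitive libraries. RORA had 4.44 and 2.53 CPM in the resistant libraries, against 15.8 and 16.8 CPM in the sensitive libraries, and PPARG, the adipogenic lipid receptor, had 1.59 and 2.72 CPM in the resistant libraries, against 9.97 and 8.58 CPM in the sensitive libraries. NR2F2 differed by 0.43 and the other pair by -2.22 and -2.11 on the log2 scale.

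ETS factors had 2 rises and 2 falls of 20 (10.0% each, median 0.16). ETV4 and ETV5, which are known targets and effectors of ERK signalling, had 46.8 and 57.7 CPM and 47.5 and 49.9 CPM in resistant libraries, against 34.5 and 29.8 CPM and 34.6 and 33.6 CPM in sensitive ones. FLI1, an endothelial and blood factor, had 9.3 and 7.8 CPM in the resistant libraries, against 23.1 and 24.9 CPM in the sensitive libraries, and ELF1 had 16.9 and 16.9 CPM in the resistant libraries, against 29.6 and 27 CPM in the sensitive libraries. EGR1, an immediate-early target of ERK counted among the other lineage factors, had 16.1 and 18.9 CPM in the resistant libraries, against 6.11 and 6.12 CPM in the sensitive libraries. The sensitive libraries lay below the resistant ones in ETV4, ETV5 and EGR1 and above them in FLI1 and ELF1. ETV4 was at 0.70 (SE 0.14) and ETV5 at 0.52 (SE 0.12) in log2 fold change, and neither passed the test against a 1.5-fold change. Activity of ERK signalling was not tested. The bZIP factors had 3 rises and 2 falls of 46 (median -0.02). CREB3L1, a stress factor that drives collagen secretion, had 47.3 and 59.1 CPM in the resistant libraries, against 25.6 and 25.3 CPM in the sensitive libraries, and CEBPB had 58.6 and 51.9 CPM in the resistant libraries, against 27.1 and 38 CPM in the sensitive libraries. JDP2, a repressor of AP-1, had 5.15 and 8.28 CPM in the resistant libraries, against 25.8 and 25.5 CPM in the sensitive libraries, and NFE2L3 had 67.2 and 77.9 CPM in the resistant libraries, against 102 and 106 CPM in the sensitive libraries. No bZIP gene of these overlapped between groups.

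Other lineage factors had 6 rises and 5 falls of 96 (median -0.02). WWTR1, which encodes the Hippo effector TAZ, had 32.7 and 29.6 CPM in the resistant libraries, against 156 and 177 CPM in the sensitive libraries (log2 fold change -2.42, SE 0.12, edgeR adjusted p = 1.12e-12). BCL6, a transcriptional repressor, had 4.99 and 8.18 CPM in the resistant libraries, against 17.5 and 15 CPM in the sensitive libraries. MEF2C had 5.44 and 13.2 CPM in the resistant libraries, against 2.44 and 0.0648 CPM in the sensitive libraries, with log2 fold changes of 1.94 to 7.09 as single libraries were left out and no call by DESeq2. HMGA2, an oncofetal architectural factor, had 1432 and 1405 CPM in the resistant libraries, against 932 and 1009.9 CPM in the sensitive libraries. Its paralog HMGA1 (log2 fold change 0.14) and the AP-1 member FOSL1 (0.15), which by FPKM were with HMGA2 the 3 most abundant genes of the transcription-factor families, were not called. ZNF zinc-finger factors, the widest list, had 5 rises and 5 falls of 453 (1.10% each, median 0.02), both under the background. ZNF778 and ZNF550 had 31.5 and 33.2 CPM and 31.5 and 32.2 CPM in resistant libraries, against 16.6 and 14.1 CPM and 18.8 and 14.8 CPM in sensitive ones. ZNF542P, a pseudogene, had 0.518 and 0.379 CPM in the resistant libraries, against 7.26 and 4.27 CPM in the sensitive libraries, and ZNF641 had 2.79 and 2.21 CPM in the resistant libraries, against 9.75 and 7.51 CPM in the sensitive libraries. All 4 were separate.

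**Figure D3:**
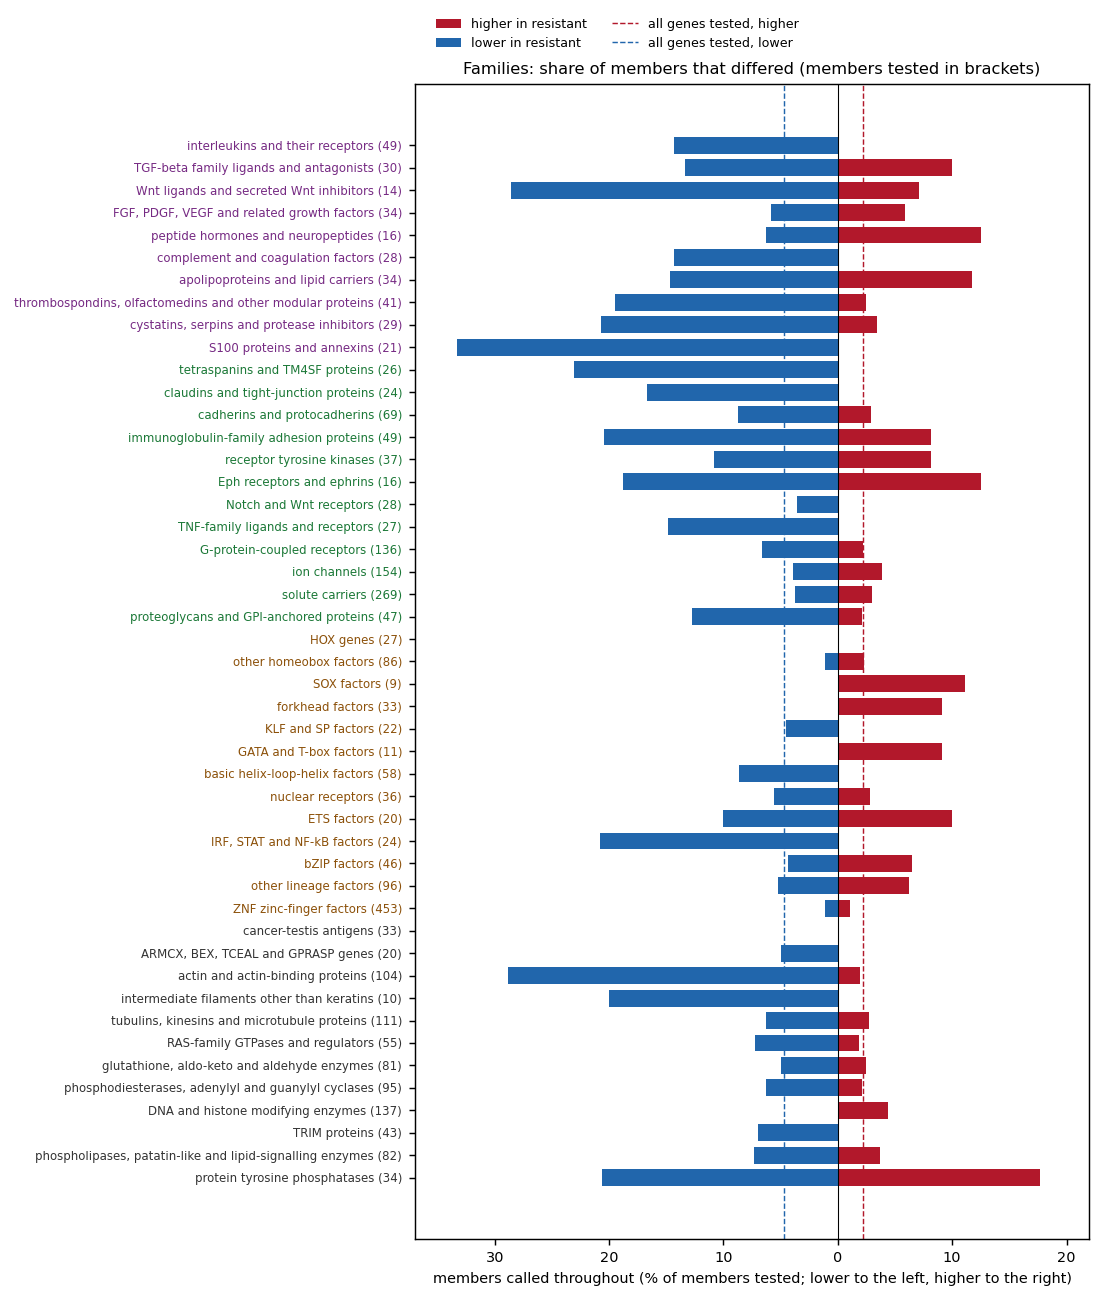
Percent of tested members that rose (red, to the right) or fell (blue, to the left) in resistant cells, for the families described, each with at least 9 tested members (in brackets), coloured by class on the axis (purple secreted, green surface, brown transcription factors, black intracellular). Dashed lines mark the shares over all genes tested, 2.21% and 4.71%, and S100 proteins and annexins (33.3%) and actin-binding proteins (28.8%) reach furthest to the left.

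Of 104 actin and actin-binding genes 2 rose and 30 fell (1.92% and 28.8%), with a median of -0.33. PDLIM1, a PDZ and LIM protein of stress fibres, had 10.3 and 11.5 CPM in the resistant libraries, against 99.1 and 99.6 CPM in the sensitive libraries (log2 fold change -3.18, SE 0.15, edgeR adjusted p = 5.91e-13). DPYSL3, a regulator of growth-cone actin, had 0.0648 and 0 CPM in the resistant libraries, against 23.5 and 29.9 CPM in the sensitive libraries. The falls also took in ACTN4 (alpha-actinin-4), TPM1 (tropomyosin) and PFN1 (profilin), with log2 fold changes of -0.53 (SE 0.077), -0.49 (SE 0.055) and -0.32 (SE 0.054), named here after their values were seen. The 2 rises were MYH15, with 21 and 18.9 CPM in the resistant libraries, against 3.73 and 4.5 CPM in the sensitive libraries, and MYH16, a myosin pseudogene, with 19.6 and 30.7 CPM in the resistant libraries, against 9.64 and 5.12 CPM in the sensitive libraries. TMSB10, the most abundant intracellular gene by FPKM, had 4501 and 4731 FPKM in resistant and 5576 and 5538 FPKM in sensitive libraries, and VIM, which encodes vimentin, had 1888 and 1846 FPKM in resistant and 1616 and 1607 FPKM in sensitive libraries. Both were called with all libraries (log2 fold changes -0.30 and 0.18) and lost the call when 1 library was left out.

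RAS-family GTPases and regulators had 1 rise and 4 falls of 55 (median 0.04). RASSF8 had 57.1 and 68.1 CPM in the resistant libraries, against 40.1 and 45.3 CPM in the sensitive libraries. The RAS-association tumour suppressors RASSF2 and RASSF10 had 0 and 0.442 CPM and 0.453 and 0.948 CPM in resistant libraries, against 13 and 10.8 CPM and 8.3 and 12 CPM in sensitive ones. The groups did not overlap in any of them.

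Tubulins, kinesins and microtubule proteins had 3 rises and 7 falls of 111 (2.70% and 6.31%, median 0.00). MAP2, a microtubule protein of dendrites, had 11.8 and 14 CPM in the resistant libraries, against 3.7 and 3.34 CPM in the sensitive libraries, and the axonemal dynein DNAH1 had 12.5 and 8.97 CPM in the resistant libraries, against 5.23 and 2.59 CPM in the sensitive libraries. The beta-tubulin genes TUBB2B and TUBB2A, which are close copies of each other, had 9.56 and 11.1 CPM and 13.7 and 14 CPM in resistant libraries, against 31.9 and 43.3 CPM and 43.6 and 36.1 CPM in sensitive ones. Intermediate filaments other than keratins had 0 rises and 2 falls of 10 (median -0.38). INA, which encodes alpha-internexin, had 5.57 and 5.53 CPM in the resistant libraries, against 20.7 and 30.7 CPM in the sensitive libraries, and LMNA, which encodes lamins A and C, had 1097 and 1251 CPM in the resistant libraries, against 1484 and 1578 CPM in the sensitive libraries. Neuronal microtubule and filament genes thus went both ways, MAP2 at 1.87 and INA at -2.21 on the log2 scale.

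Protein tyrosine phosphatases had rises and falls above both background shares, 6 and 7 of 34 (17.6% and 20.6%), with a median of -0.11. PTP4A1 led the rises. PTPN22, a phosphatase of lymphocyte signalling, had 12.8 and 11.6 CPM in the resistant libraries, against 4.79 and 5.25 CPM in the sensitive libraries. PTPRE had 0 and 0.19 CPM in the resistant libraries, against 10 and 5.57 CPM in the sensitive libraries, and PTPN13, a large phosphatase that binds FAS, had 40.5 and 43.2 CPM in the resistant libraries, against 95.8 and 104 CPM in the sensitive libraries. The list of DNA and histone modifying enzymes had 6 rises and 0 falls of 137 (4.38%, median 0.11), with PHF3 first. The list goes by symbol, and PHF3, which binds RNA polymerase II, is not itself such an enzyme. HDAC9, a class IIa deacetylase, had 84.1 and 71.9 CPM in the resistant libraries, against 41.5 and 40.9 CPM in the sensitive libraries, and it stood at 191 and 193 CPM and 157 and 156 CPM with COL6A3 siRNA without and with endotrophin. Each of these genes was separate between the control groups.

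Lipid-signalling enzymes had 3 rises and 6 falls of 82 (median -0.03). SPHK1, which makes sphingosine 1-phosphate, had 41.1 and 42.9 CPM in the resistant libraries, against 20.3 and 22.3 CPM in the sensitive libraries, and DGKI, a diacylglycerol kinase, had 8.55 and 4.77 CPM in the resistant libraries, against 0.767 and 1.36 CPM in the sensitive libraries. PNPLA4, a retinyl ester hydrolase, was at 0 CPM in both resistant libraries, against 8.66 and 11.4 CPM in sensitive ones, at least 104-fold lower in resistant cells, and PLAAT3, an acyltransferase, had 24.2 and 28.2 CPM in the resistant libraries, against 95.9 and 82.9 CPM in the sensitive libraries. Glutathione, aldo-keto and aldehyde enzymes had 2 rises and 4 falls of 81 (median -0.02). The microsomal transferase MGST1 had 155 and 132 CPM in the resistant libraries, against 94.1 and 88.3 CPM in the sensitive libraries and the reductase DHRS11 had 22.5 and 21.8 CPM in the resistant libraries, against 13.8 and 10.3 CPM in the sensitive libraries. NNMT, which methylates nicotinamide, had 15.8 and 14.7 CPM in the resistant libraries, against 109 and 97.4 CPM in the sensitive libraries, and GSTM3, a glutathione transferase, had 9.68 and 11.8 CPM in the resistant libraries, against 24.2 and 22.3 CPM in the sensitive libraries. The groups did not overlap in these 4 enzymes, with log2 fold changes of 0.65 for MGST1 and -2.76 for NNMT.

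The cyclic nucleotide, protein kinase A and protein kinase C list had 2 rises and 6 falls of 95 (median 0.00). GNG7, a G-protein gamma subunit, had 7.16 and 5.94 CPM in the resistant libraries, against 1.4 and 1.88 CPM in the sensitive libraries, and the anchoring protein AKAP10 had 79.4 and 74.1 CPM in the resistant libraries, against 54.1 and 56.6 CPM in the sensitive libraries. PRKCH, a protein kinase C, had 3.82 and 2.78 CPM in the resistant libraries, against 10.8 and 13.6 CPM in the sensitive libraries, and the anchoring protein AKAP12 had 2.07 and 3.6 CPM in the resistant libraries, against 10.3 and 9.75 CPM in the sensitive libraries. TRIM ubiquitin ligases had 0 rises and 3 falls of 43 (median -0.12), with TRIM22 at -1.92 and the antibody receptor TRIM21 at -1.08 in log2 fold change. In the ARMCX, BEX, TCEAL and GPRASP group 1 of 20 fell (median -0.19): ARMCX2 was at 0 CPM in both resistant libraries, against 10.7 and 12.8 CPM in sensitive ones, at least 122-fold lower in resistant cells. Cancer-testis antigens had 0 and 0 of 33 (median 0.08).

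The share of genes that rose or fell differed between chromosomes, a difference given as a description with no test. Rises made up 6.02% of the 964 genes tested on chromosome 17 and 4.73% of the 676 on chromosome 16, against 2.21% over all genes. Falls made up 12.4% of 515 genes on chromosome 15, 9.07% of 419 on chromosome 20 and 8.73% of 481 on chromosome 14, against 4.71% over all genes. The median log2 fold change was 0.14 on chromosome 17, -0.20 on chromosome 15 and -0.22 on chromosome 14. The chromosome medians kept their sign in each fit that left out 1 library, at 0.11 to 0.15 for chromosome 17, -0.23 to -0.17 for chromosome 15 and -0.26 to -0.21 for chromosome 14.

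**Figure D4:**
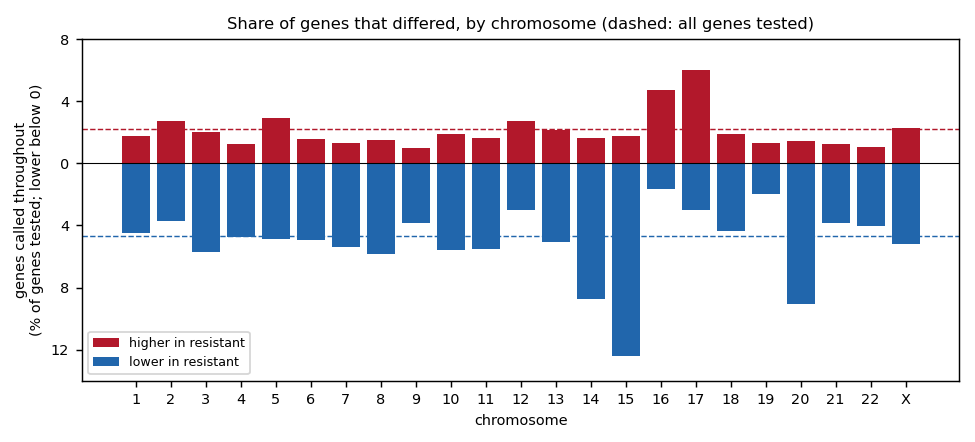
Percent of tested genes that rose (red, above 0) or fell (blue, below 0) in resistant cells by chromosome, with dashed lines at the shares over all genes. Rises are highest on chromosomes 17 (6.02%) and 16 (4.73%) and falls on chromosome 15 (12.4%).

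To see where on a chromosome the differences lay, chromosomes were divided into 212 blocks of 10 Mb with at least 20 genes of at least 5 CPM, a division made after the data were seen. The block of chromosome 16 from 80 to 90 Mb had the highest median log2 fold change, 0.45, with 63 of 70 genes above 0 and 21 rises against 1 fall. Its genes include PIEZO1, a mechanically gated channel, ZNF778 and the chromatin factor ANKRD11, and the genes given for these blocks were picked after their values were seen. The chromosome 17 block from 10 to 20 Mb had a median of 0.35, with 48 of 61 genes above 0, and held TRPV2 and AKAP10 among its 16 rises. On chromosome 15, from 60 to 70 Mb, the median was -0.44, with 49 of 53 genes below 0 and 15 falls that included ANXA2, RORA, SMAD3 and TPM1. The next block of that chromosome, from 70 to 80 Mb, had a median of -0.32, with 52 of 61 genes below 0. The lowest block was on chromosome 3 from 140 to 150 Mb, at -0.47, and held TM4SF1, TM4SF4, TM4SF18, WWTR1 and PFN2. As single control libraries were left out, the median was 0.43 to 0.50 in the chromosome 16 block, 0.31 to 0.34 in that of chromosome 17, -0.46 to -0.42 in the first of chromosome 15 and -0.57 to -0.37 in that of chromosome 3. Medians over 0.3 occurred in 2 blocks and medians below -0.3 in 8. DNA copy number was not measured in these libraries, and its part in these blocks was not tested.

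The blocks can be followed library by library, though the gap between the control groups is what chose them. Relative to the mean of the 4 control libraries, the chromosome 16 block had a median of 0.21 and 0.24 in the resistant libraries, against -0.19 and -0.22 in the sensitive ones, on the log2 scale. The chromosome 15 block from 60 to 70 Mb had -0.18 and -0.25 in the resistant libraries, against 0.22 and 0.21 in the sensitive ones. In the COL6A3 siRNA libraries the chromosome 15 block stood at -0.17 and -0.07, and with endotrophin at -0.14 and -0.13. The chromosome 16 block stood at 0.04 and 0.10 with COL6A3 siRNA and at 0.25 and 0.26 with endotrophin.

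**Figure D5:**
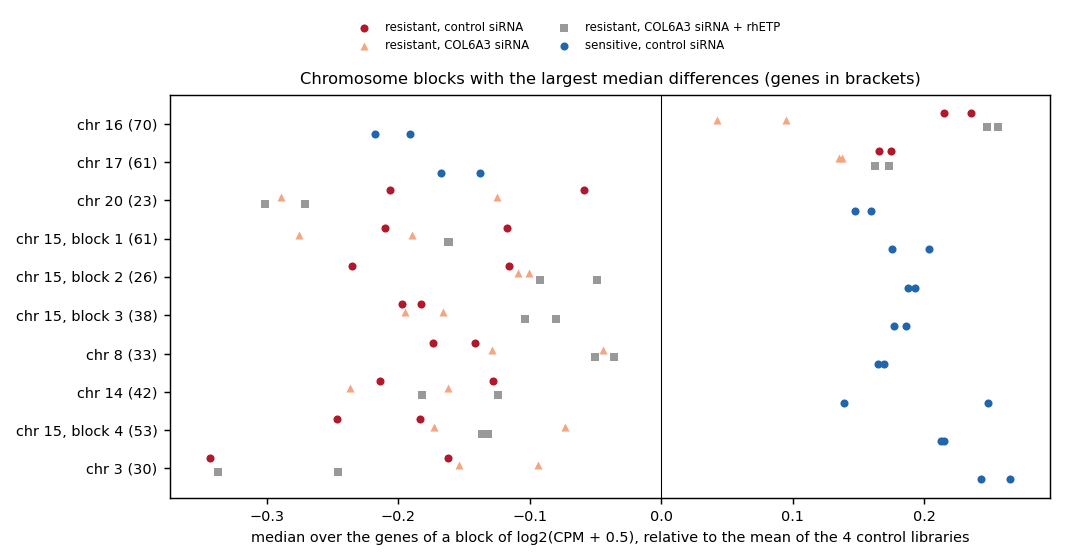
Median over the genes of a block of log2(CPM + 0.5), relative to the mean of the 4 control libraries, 1 point per library, for the 10 blocks of 10 Mb whose median log2 fold change exceeded 0.3 in size, ordered from high to low. The resistant control points (red) and sensitive control points (blue) lie on opposite sides of 0 in every block, which the choice of blocks and the centring nearly fix in advance. The other resistant libraries lie on the resistant side.

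Some neighbouring genes moved together. Runs of at least 4 neighbouring tested genes that changed the same way numbered 2, both lower in resistant cells. The first, on chromosome 10, held IFIT2, IFIT3, IFIT1 and IFIT5, RNA-binding proteins induced by interferon. IFIT2 had 20.3 and 19.7 CPM in the resistant libraries, against 73.7 and 82 CPM in the sensitive libraries, IFIT3 had 36 and 30.8 CPM in the resistant libraries, against 139 and 153 CPM in the sensitive libraries, and IFIT5 had 51.3 and 50.2 CPM in the resistant libraries, against 91.1 and 95.4 CPM in the sensitive libraries. In the COL6A3 siRNA libraries IFIT3 stood at 72.7 and 64.8 CPM. The second, on chromosome 11, held FADS2, a fatty acid desaturase with 27 and 25.7 CPM in the resistant libraries, against 43.1 and 50.4 CPM in the sensitive libraries, and FADS3, with 22.9 and 29.4 CPM in the resistant libraries, against 53 and 56.6 CPM in the sensitive libraries. It went on with RAB3IL1, which had 2.01 and 2.97 CPM in the resistant libraries, against 10.7 and 9.33 CPM in the sensitive libraries, and the ferritin heavy chain gene FTH1, which had 88.2 and 125 CPM in the resistant libraries, against 169.7 and 209 CPM in the sensitive libraries. In both runs the resistant libraries lay below the sensitive ones. FTH1 has many processed copies in the genome, and its call was lost without resistant replicate 1 and sensitive replicate 2 together.

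Promoters of protein-coding genes, 250 bases before to 50 after the start in RefSeq (GRCh38.p14), were searched on both strands for 5 motifs, and 11047 of 13470 such genes tested had a promoter. The motif GAAA, any 2 bases and GAAA again, the core of the interferon-stimulated response element, was present in 33 of 314 promoters of genes that fell over 2-fold (10.5%), in 0 of 90 of those that rose over 2-fold and in 2.96% of all. Over all genes that fell or rose, whatever the size, it was present in 48 of 590 promoters (8.14%) and 1 of 269 (0.372%). TGANTCA takes in the AP-1 motif TGA(C/G)TCA but also sites with A or T in the middle. Its shares are therefore not those of AP-1 motifs alone. TGANTCA was present in 8 of 90 promoters of genes that rose over 2-fold (8.89%), in 4.14% of those that fell over 2-fold and in 4.55% of all. Over all genes that rose or fell its shares were 6.32% and 5.93%, so the gap between rises and falls over 2-fold was not seen there. CACGTG, the E-box, was present in 2.22% of rises over 2-fold, 7.32% of falls over 2-fold and 9.96% of all, GGAATG, the TEAD motif, in 8.89%, 12.7% and 10.95% of the same sets, and TATAAA, the TATA box, in 10.0%, 10.5% and 6.05%. Over all rises and all falls the shares were 7.43% and 8.81% for CACGTG, 10.8% and 12.9% for GGAATG, and 6.69% and 8.47% for TATAAA. The median CpG observed over expected ratio was 0.66 in rises over 2-fold and 0.77 in falls over 2-fold, against 0.83 in all genes tested, and it was 0.83 over all rises and 0.79 over all falls. A match describes the letters of a promoter and shows neither binding nor a cause.

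Of the genes that rose over 2-fold with at least 5 CPM, the 4 whose TGANTCA lies, with 20 bases on either side, wholly before the start are shown, 5′ to 3′ on the gene's strand, with the motif in capitals. ADAMTS12 is a metalloprotease of the matrix, F2RL2 a thrombin-activated receptor, SBSN an epidermal secreted protein and NAP1L2 a nucleosome assembly factor. The middle base is G in F2RL2 and SBSN, as the AP-1 motif allows, and A in ADAMTS12 and NAP1L2, which the AP-1 motif does not allow. Their windows lie at chr5:33892048-33892094, minus strand, at chr5:76623414-76623460, minus strand, at chr19:35528356-35528402, minus strand and at chrX:73215001-73215047, minus strand.
ADAMTS12: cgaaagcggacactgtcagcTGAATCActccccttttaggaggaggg
F2RL2: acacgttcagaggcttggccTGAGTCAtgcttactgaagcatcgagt
SBSN: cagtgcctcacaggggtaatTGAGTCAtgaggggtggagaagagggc
NAP1L2: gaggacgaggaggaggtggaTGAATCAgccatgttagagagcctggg
ADAMTS12 had 31.5 and 35.1 CPM in resistant and 1.59 and 1.36 CPM in sensitive libraries, and SBSN had 15.1 and 14.4 CPM in resistant and 3.7 and 1.62 CPM in sensitive libraries. The groups were separate in all 4 genes, NAP1L2 having 17.5 and 13.5 CPM in resistant and 4.16 and 4.21 CPM in sensitive libraries.

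The falls with this interferon-response motif or its reverse complement are shown by the same rule, first the 5 largest falls with at least 5 CPM and a motif window wholly before the start, which leaves out MX1 with its larger fall than HLA-F, and then the 3 IFIT genes of the run on chromosome 10 that hold it. GLUL encodes glutamine synthetase, GYPC a glycophorin and HLA-F a non-classical HLA chain whose reads cannot be cleanly assigned among HLA genes. The windows lie at chr19:17405725-17405774, minus strand (BST2), chr1:182391957-182392006, minus strand (GLUL), chrX:111095963-111096012, plus strand (PAK3), chr2:126655924-126655973, plus strand (GYPC) and chr6:29723258-29723307, plus strand (HLA-F). Those of the IFIT genes lie at chr10:89327855-89327904, plus strand (IFIT3), chr10:89392500-89392549, plus strand (IFIT1) and chr10:89414503-89414552, plus strand (IFIT5).
BST2: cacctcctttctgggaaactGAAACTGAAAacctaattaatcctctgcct
GLUL: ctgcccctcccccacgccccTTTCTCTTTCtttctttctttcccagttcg
PAK3: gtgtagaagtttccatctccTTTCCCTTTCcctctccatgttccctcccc
GYPC: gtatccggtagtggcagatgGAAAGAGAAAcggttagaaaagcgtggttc
HLA-F: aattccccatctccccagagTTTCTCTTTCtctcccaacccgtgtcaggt
IFIT3: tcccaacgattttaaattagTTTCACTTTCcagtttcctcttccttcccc
IFIT1: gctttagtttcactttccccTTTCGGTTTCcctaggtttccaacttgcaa
IFIT5: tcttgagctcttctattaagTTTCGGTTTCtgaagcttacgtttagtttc
GLUL had 0 and 0.379 CPM in resistant and 50.4 and 45.2 CPM in sensitive libraries, and GYPC had 0.453 and 0.253 CPM in resistant and 6.52 and 12.9 CPM in sensitive libraries. PAK3, a kinase activated by small GTPases, had 0 and 0.19 CPM in resistant and 10.6 and 8.65 CPM in sensitive libraries. HLA-F had 0.0648 and 1.14 CPM in resistant and 9.07 and 11.4 CPM in sensitive libraries. BST2 and the IFIT genes are described above, and no gene of the 8 overlapped between groups.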

How the data were processed

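The deposited table of the series gives counts per gene, not normalized by the authors, and a second deposited table holds FPKM, per the file headers. The submitters' processing notes name GRCh38. Aligner, counting tool and strandedness were not given in the sources used here, so antisense and overlapping genes cannot be told apart. One unnamed entry had 0 counts and was left out. Counts were analysed with edgeR 4.0.16 in R 4.3.3: filterByExpr kept 15684 genes, libraries were scaled by TMM, and all 8 libraries entered a quasi-likelihood fit with a term for each group (4 residual degrees of freedom, common biological coefficient of variation 0.220). Tests were 2-sided, with Benjamini-Hochberg adjustment over all genes tested and 0.05 as the threshold, and in fits without 1 library the lone library of its group is assumed to vary like the other groups. SE is the absolute log2 fold change over the square root of F.

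Genes are named by rule: the 10 largest rises and falls with at least 50 CPM and log2 fold changes within 1.5 times in each leave-one-out fit, the 6 largest differences in FPKM, up to 2 rises and 2 falls per family with at least 5 CPM, runs of neighbours, the 3 most abundant genes of each class, COL6A3 and CD44. Some genes that the rule names and 1 intracellular family are not reported here. The members, families and lists were chosen with earlier results of these data known. A floor of 3 counts per library, which covers counting error only, sets bounds where a group was at 0. On simulated data of this design, edgeR called 64% to 68% of 2-fold changes placed in genes with a mean of at least 1 CPM. That share is for the call on all libraries, and the stricter rule cannot recover more. Positions and promoters come from RefSeq (GRCh38.p14), which matched 15425 of the 15684 genes. Alternatives were RLE scaling, DESeq2 1.42.0, 2 other filters, 4 libraries alone, a replicate block, halved counts, limma 3.58.1 on log2 FPKM, a 1.5-fold threshold and leaving out libraries. The labels state no pairing of samples by replicate number, and the main fit used none.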

Additional observations from a re-analysis of the deposited data

How the results depend on the processing

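Of the 176 named genes that rose or fell, none lost its call under RLE scaling, without the low-count filter, with the 4 control libraries alone or with halved counts, and under the stricter filter 1 was not tested. The test against a 1.5-fold change lost 34, among them ETV4, ETV5, FOXD1, CEBPB, HMGA2, CHRDL1, FGF5, SLC20A1 and CD63. DESeq2 lost 3 (WNT7B, ANXA3, MEF2C), limma on FPKM lost 5 or 7, and leaving out resistant replicate 1 and sensitive replicate 2 together, an alternative added after seeing the data, lost 9 (HDGF, SIX4, NFE2L3, LMNA, DNAH1, DHRS11, MGST1, AKAP10, FTH1). None of the 176 changed direction under any alternative, which their choice by the stricter rule made likely in advance. Genes called numbered 1410 (573 higher, 837 lower) without those 2 libraries, 1603 to 2217 (623 to 962 higher, 980 to 1255 lower) without 1 control library, and 568 (136 higher, 432 lower) against a 1.5-fold change, where 312 (64 higher, 248 lower) passed every leave-one-out fit. Genes called in every leave-one-out fit numbered 554 (164 higher, 390 lower) with limma on log2(FPKM + 0.1) and 623 (166 higher, 457 lower) on log2(FPKM + 1), and the cause was not tested. DESeq2 called 2813 genes and 1169 throughout. With the replicate block 2606 genes were called (1091 higher, 1515 lower) and 952 throughout (295 higher, 657 lower). The replicate-number deviations correlated at only -0.015 to 0.049 between groups, so no shared deviation by replicate number was seen. That cannot show whether samples of the same number were handled together. Of 96 family counts, 79 stayed within 1.5 times with the 4 control libraries alone and 51 with limma on log2(FPKM + 0.1). With halved counts 2684 genes were called, and replicates of a group differed beyond counting error, with a chi-square per degree of freedom of 15.6 to 19.0.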

Other observations

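Runs of 3 neighbouring genes that changed the same way, chosen after their values were seen, numbered 15, 7 of them higher and 8 lower in resistant cells. On chromosome 17, 4 runs rose, among them ALKBH5, LLGL1 and FLII, and USP22, DHRS7B and TMEM11. On chromosome 12, OAS1, OAS3 and OAS2 fell together, OAS3 having 68.1 and 74.4 CPM in the resistant libraries, against 242 and 274 CPM in the sensitive libraries. On chromosome 3, PARP9, DTX3L and PARP14, partners in ADP-ribosylation and ubiquitin signalling, fell, with DTX3L at -1.75 (SE 0.11) in log2 fold change. On chromosome 7, CAV2, CAV1 and MET fell. CAV1, which encodes the caveolar coat protein caveolin-1, had 546 and 509 CPM in the resistant libraries, against 1490.5 and 1470.1 CPM in the sensitive libraries, and the hepatocyte growth factor receptor gene MET had 184 and 168 CPM in the resistant libraries, against 318 and 336 CPM in the sensitive libraries. None of these genes overlapped between groups.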
